A study of Mus musculus with 15 samples.

Results

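Transcripts of 9 genes that mark or maintain the pluripotent state were followed through 5 fractions of differentiating mouse embryonic stem (ES) cells: Nanog, Pou5f1, Sox2, Zfp42, Esrrb, Klf4, Utf1, Dppa4 and Dppa5a. The members were the 9 rows of the count table that carry these gene symbols, out of 24034 gene rows. All 9 were present, and 8 of them had enough reads to be tested, Utf1 being the one that had not. Together they behaved as 3 groups. Nanog, Pou5f1, Sox2, Zfp42, Esrrb and Dppa5a were lower in the HEI fractions than in the FLK1+ fractions, most of them near the limit of detection there. Klf4 was higher in the HEI fractions, and Dppa4 did not pass the test between them.

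The cells carried a LacZ reporter driven by elements of Endoglin (Eng), a co-receptor of the TGF-beta family that is found on endothelial cells and blood progenitors. The groups, with 3 libraries each, were as follows. From a line with the -8/P construct, cells labelled HEI were sorted into ENG+FDG+, ENG-FDG+ and ENG+FDG- fractions. FDG is a fluorogenic substrate of the beta-galactosidase that LacZ encodes, so FDG+ cells have an active reporter. From a line with the -8/P/+7/+9 construct, the LacZ+ and LacZ- fractions of FLK1+ cells were taken, FLK1 being the VEGF receptor that Kdr encodes. Every group, including those without reporter activity, thus came from a line that carries a reporter construct, and no line without one is among the groups. The study describes the cells that the -8/P construct marks as positive for TIE2 and c-KIT and negative for CD41, and those marked by the longer construct as FLK1 mesoderm enriched for blast colony potential. No source used here spells out HEI or gives the days of culture, the sort gates or the number of clones behind each line. HEI and FLK1+ cells came from different constructs, so a difference between them in stage and a difference in line cannot be told apart.

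In mouse ES cells the transcription factors OCT4 (Pou5f1), SOX2 and NANOG form the core of the network that keeps cells undifferentiated, and they bind each other's genes and their own. Around this core stand factors of the naive state, such as the nuclear receptor ESRRB and the Krüppel-like factor KLF4, and genes read as markers of it, such as Zfp42 (REX1) and Dppa5a. As cells leave the naive state for the primed epiblast and then the primitive streak, the naive genes are shut off first. Pou5f1 and Nanog transcripts are found in the posterior epiblast and the earliest mesoderm. KLF4 is also a factor of endothelial cells, where it responds to blood flow.

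Library totals were 9673396 to 16337785 counts, with 13954 to 17064 genes detected. The replicate 1 libraries of all 5 groups stood apart from replicates 2 and 3: reads of the ribosomal transcript Rn45s made up 1.4 to 3.56% of each, against 0.524 to 0.784% of the other libraries, and the typical variation between libraries of a group (edgeR's common biological coefficient of variation) was 0.477 over all libraries and 0.076 over replicates 2 and 3. Results are therefore also given without replicate 1. It could not be told whether replicates 2 and 3 are separate samples, so p values from these libraries alone may be too small. The sort marker Eng followed the labels within each replicate number. It had 180 to 904 CPM in HEI ENG+FDG+ cells, 39.4 to 161 CPM in ENG-FDG+ cells and 184 to 961 CPM in ENG+FDG- cells. Kdr had 318 to 715 CPM over the FLK1+ libraries and 404 to 1040 CPM over the HEI libraries. No FLK1- fraction is among the groups, so Kdr cannot check the FLK1+ label. CPM is a count divided by the library size after TMM scaling, in edgeR's usual unit. The labels name no separate cultures or sorts behind the replicates, so p values measure the spread between these libraries only.

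A sequence feature shared by 3 members, the core factors Nanog and Sox2 and the naive marker Zfp42, is shown first. The windows were the bases upstream of RefSeq transcript starts (GRCm38.p6, 250 bases each), which were given for 7 of the 9 members; Dppa4 and Dppa5a were not among them. The letters TTTGCAT, the core of the octamer bound by OCT4 and its relatives, were searched on both strands and found in 3 of the 7, Nanog, Sox2 and Zfp42, against 4.12% of all 32851 windows and 4.65% of 27025 genes. In Nanog they stand just before ACAATG, part of the motif bound by SOX factors. That pairing, TTTGCATNACAATG, is long known from the mouse Nanog promoter. Its letters were chosen here after the Nanog window had been seen, and Nanog was the single gene of the 27025 that held it (0.0037%), in the windows of both its starts. ACAATG by itself, which overlaps the longer motif in Nanog, was in 12.2% of genes, and among the members in Nanog and in Pou5f1. The Pou5f1 window with the match begins at base 35508557 of chromosome 17. This is inside the annotated gene (35506018 to 35510772), so the match lies before an internal transcript start. The Sox2 window begins at base 34649745 of chromosome 3 and ends at a RefSeq start that lies before the annotated gene (34650405 to 34652461). Its match is thus farther from the annotated start than from that RefSeq start. In the 3 stretches below, capitals mark the match. It begins 75 bases before one RefSeq start of Nanog and 151 before the other (chr6:122707384-122707457, plus strand), begins 99 bases before the start and reads on the opposite strand in Sox2 (chr3:34649866-34649932, plus strand shown), and begins 185 bases before the start in Zfp42 (chr8:43307158-43307224, minus strand shown).
Nanog: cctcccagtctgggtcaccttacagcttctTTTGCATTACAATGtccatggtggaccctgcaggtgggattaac
Sox2: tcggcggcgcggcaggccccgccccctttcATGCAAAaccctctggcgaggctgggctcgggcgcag
Zfp42: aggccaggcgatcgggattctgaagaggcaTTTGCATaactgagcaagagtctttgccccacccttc
These matches are letters in a window. Binding was not measured in these cells, and a link between the letters and the RNA level was not tested. Among members with a window that lacks TTTGCAT, Pou5f1 and Esrrb were lower in the HEI fractions and Klf4 was higher. Utf1, the remaining such member, did not have enough reads to be tested and had 2 HEI counts against 2504 FLK1+ counts.

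Between the HEI and the FLK1+ fractions, 6 of the 8 tested members were lower, 1 was higher and 1 did not pass the test. This compares the mean of the 3 HEI groups with the mean of the 2 FLK1+ groups (edgeR quasi-likelihood test, Benjamini-Hochberg adjusted p under 0.05), and asks how far the pluripotency programme differs between the cells sorted from the one line and the other. Over all 13662 genes tested, 20.3% were lower and 17% higher in HEI cells, 37.3% in all. The median log2 fold change of the members was -6.18, and that of all genes was -0.11. The HEI and FLK1+ libraries did not overlap for 5 of the 8 members, Nanog, Pou5f1, Sox2, Zfp42 and Dppa5a, all lower in HEI cells. Over all genes, the HEI libraries lay wholly below the FLK1+ libraries for 9.57% and wholly above for 8.59%. The 6 lower members had few HEI reads and passed the filter on low counts through their FLK1+ libraries. Their direction was thus largely set by being tested, and the counts and the median are a description. The same holds for genes of the lists below with almost no HEI reads. In bulk RNA, fewer cells that hold a transcript and less of it per cell cannot be told apart. In replicates 2 and 3 all 8 tested members passed, where 73.7% of genes did.

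**Figure D1:**
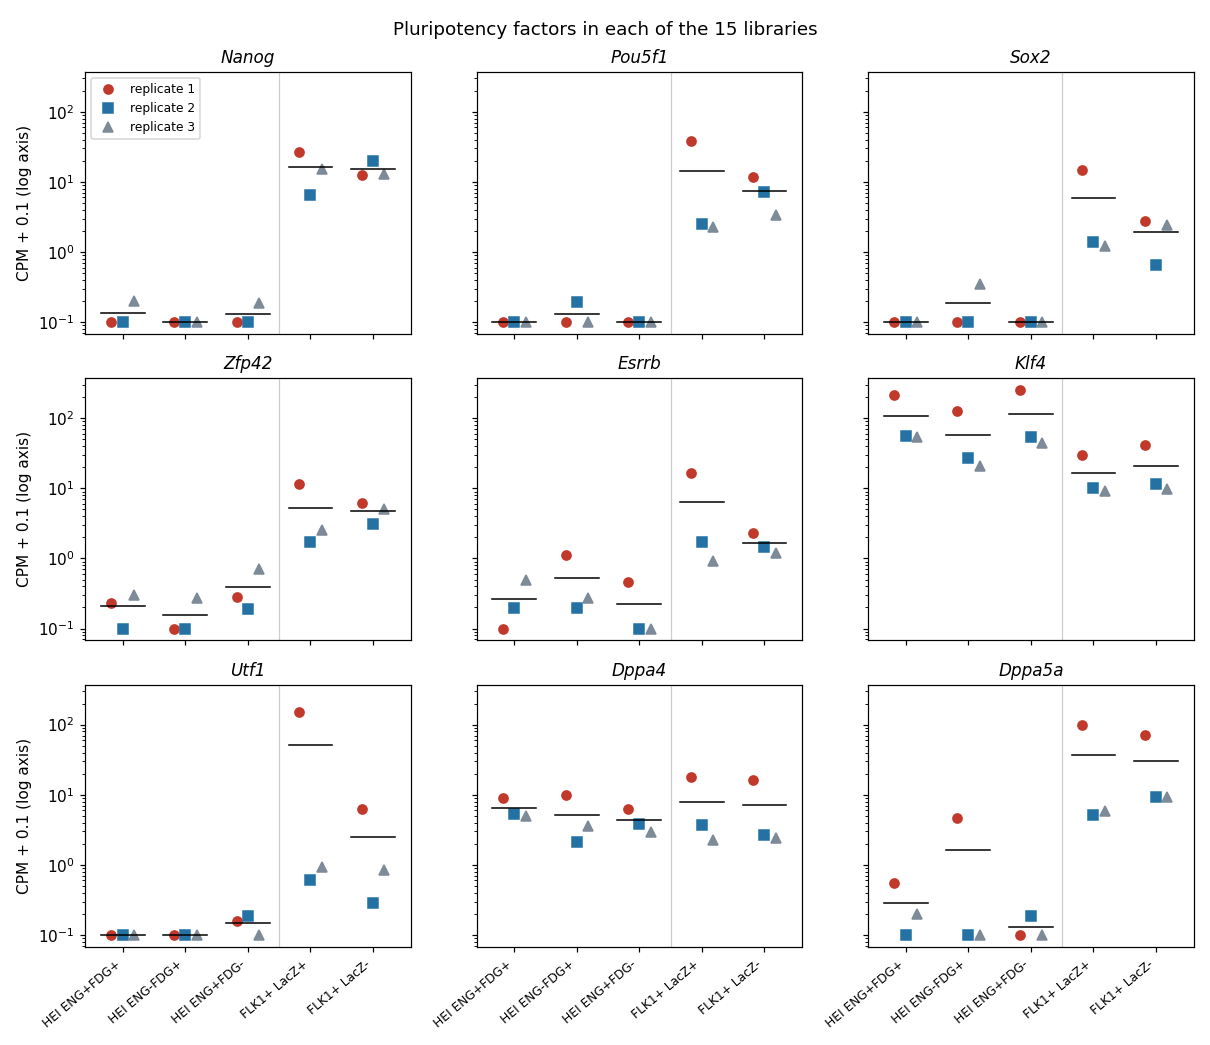
CPM of each of the 9 pluripotency factors in the 15 libraries, plotted as CPM + 0.1 on a log axis. The fractions run along the horizontal axis, points are libraries with the replicate number given by shape and colour, and bars are means of 3 libraries. The HEI libraries of Nanog, Pou5f1, Sox2 and Utf1 sit at or near 0, those of Klf4 lie between 20.8 and 251 CPM, and Utf1 in FLK1+ LacZ+ replicate 1 stands alone at 153 CPM.

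Nanog, the homeobox factor at the core of the network, lies on chromosome 6 (mm10, 122707489 to 122714633, plus strand). It had 0, 0 and 1 counts in HEI ENG+FDG+ replicates 1 to 3, no count in any ENG-FDG+ library, and 0, 0 and 1 counts in ENG+FDG- cells, against 415, 65 and 147 counts in FLK1+ LacZ+ cells and 177, 217 and 137 counts in LacZ- cells. In CPM the FLK1+ values were 26.5, 6.5 and 15.1 in LacZ+ cells and 12.4, 20 and 12.7 in LacZ- cells. Every FLK1+ library thus lay far above every HEI library, and 7 of 9 HEI libraries held no Nanog read. A count of 0 allows up to 3 counts, which is 0.182 to 0.298 CPM in the HEI libraries. The ratio of pooled CPM, HEI over FLK1+, was 0.00113 (exact 95% counting interval 0.000136 to 0.00408, counting error only), and the difference passed the edgeR test (adjusted p = 1.25e-06). Without replicate 1 the ratio was 0.00223 (0.000269 to 0.00809).

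Pou5f1, which encodes OCT4, lies on chromosome 17 (35506018 to 35510772, plus strand). Its single count over the 9 HEI libraries was in ENG-FDG+ replicate 2, against 591, 24 and 21 counts in FLK1+ LacZ+ cells and 167, 76 and 35 counts in LacZ- cells. The groups did not overlap, and within FLK1+ cells replicate 1 held most of the reads: 37.7, 2.4 and 2.15 CPM in LacZ+ cells and 11.7, 7.01 and 3.24 CPM in LacZ- cells. The pooled ratio was 0.000714 (1.81e-05 to 0.00399), with an adjusted p of 0.000204 in edgeR. In replicates 2 and 3 it was 0.00404 (0.000102 to 0.0229). Its exons share 317 bases with the antisense gene Gm19553, and no source used here says whether the counting used strand, so reads of the 2 genes may be mixed.

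Sox2, the HMG-box partner of OCT4, is a single-exon gene on chromosome 3 (34650405 to 34652461, plus strand) that lies inside the long non-coding gene Sox2ot on the same strand, with no exon bases shared. Its 3 HEI counts all came from ENG-FDG+ replicate 3. FLK1+ LacZ+ cells had 233, 13 and 11 counts (14.9, 1.3 and 1.13 CPM), and LacZ- cells had 38, 6 and 25 counts (2.66, 0.553 and 2.32 CPM). Sox2 was the lowest of the core factors in FLK1+ cells, and again the groups did not overlap. The pooled ratio was 0.00601 (0.00123 to 0.0177; adjusted p = 0.000896 in edgeR), and 0.0344 (0.00688 to 0.106) in replicates 2 and 3.

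Zfp42, the zinc-finger gene whose product REX1 is a standard marker of the naive state, lies on chromosome 8 (43295063 to 43306980, minus strand). It was found as a trace in HEI cells, with 0.13, 0 and 0.199 CPM in ENG+FDG+ cells, 0, 0 and 0.17 CPM in ENG-FDG+ cells and 0.182, 0.0881 and 0.606 CPM in ENG+FDG- cells, against 11.3, 1.6 and 2.46 CPM in FLK1+ LacZ+ cells and 6.02, 3.04 and 4.91 CPM in LacZ- cells. All 6 FLK1+ libraries were above all 9 HEI libraries. The log2 fold change was -5.18 ± 0.67 (SE; adjusted p = 5.39e-05 in edgeR). It was -4.51 without FLK1+ LacZ+ replicate 1 and -6.09 without HEI ENG-FDG+ replicate 3.

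Esrrb, an orphan nuclear receptor of the naive network, lies on chromosome 12 (86361117 to 86521628, plus strand). HEI cells had 0, 0.0952 and 0.397 CPM in the ENG+FDG+ fraction, 1.02, 0.0961 and 0.17 CPM in the ENG-FDG+ fraction and 0.364, 0 and 0 CPM in the ENG+FDG- fraction, against 16.3, 1.6 and 0.821 CPM in FLK1+ LacZ+ cells and 2.17, 1.38 and 1.11 CPM in LacZ- cells. Here the groups touched, because ENG-FDG+ replicate 1 (12 counts) was above LacZ+ replicate 3 (8 counts). The log2 fold change was -3.84 ± 0.86 (adjusted p = 0.00341 in edgeR). It depended on single libraries in its size but not its call, at -2.66 without FLK1+ LacZ+ replicate 1 (adjusted p = 0.017) and -5.10 without HEI ENG+FDG- replicate 1 (adjusted p = 0.00307). Outside the 1 library of 16.3 CPM, Esrrb reached at most 2.17 CPM.

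Dppa5a encodes a small RNA-binding protein of the KH-domain type (also called ESG1) and lies on chromosome 9 (78367052 to 78368177, minus strand). It had 7, 0 and 1 counts in HEI ENG+FDG+ cells, 54, 0 and 0 counts in ENG-FDG+ cells and 0, 1 and 0 counts in ENG+FDG- cells, against 1574, 50 and 57 counts in FLK1+ LacZ+ cells and 1017, 99 and 98 counts in LacZ- cells. In CPM the FLK1+ libraries had 100, 5 and 5.85 in LacZ+ cells and 71.2, 9.13 and 9.08 in LacZ- cells. The groups did not overlap, but replicate 1 was high in both FLK1+ fractions and also in 1 HEI fraction, where ENG-FDG+ replicate 1 reached 4.58 CPM. The log2 fold change was -7.18 ± 1.23 (adjusted p = 0.00049 in edgeR). It was -5.79 without FLK1+ LacZ+ replicate 1, -6.32 without LacZ- replicate 1, -9.53 without HEI ENG-FDG+ replicate 1, -7.80 without ENG+FDG+ replicate 1 and -7.78 without ENG+FDG- replicate 2, each past the threshold. In replicates 2 and 3 the pooled ratio was 0.00415 (5e-04 to 0.0151), from 2 HEI counts against 304 FLK1+ counts.

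Utf1, which encodes a chromatin-bound factor of undifferentiated cells, lies on chromosome 7 (139943789 to 139945112, plus strand). It did not pass the filter on low counts, because 1 library held nearly all of its reads. HEI cells had 2 counts in all, 1 each in ENG+FDG- replicates 1 and 2, against 2393, 5 and 8 counts in FLK1+ LacZ+ cells and 88, 2 and 8 counts in LacZ- cells. In CPM, LacZ+ cells had 153, 0.5 and 0.821 and LacZ- cells had 6.16, 0.184 and 0.741. Every FLK1+ library was above every HEI library, yet only the replicate 1 libraries were above 1 CPM. The pooled ratio was 0.000521 (6.31e-05 to 0.00189) over all libraries and 0.0274 (0.000666 to 0.169) in replicates 2 and 3, from 1 count against 23. In the edgeR fit without the filter its adjusted p was 0.00291, and 14.5% of 19443 genes were called lower in that fit.

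Klf4 moved the other way. The gene lies on chromosome 4 (55527143 to 55532466, minus strand). It had 213, 55.3 and 54.7 CPM in HEI ENG+FDG+ cells, 125, 27 and 20.8 CPM in ENG-FDG+ cells and 251, 54.1 and 43.8 CPM in ENG+FDG- cells, against 29.9, 9.99 and 8.92 CPM in FLK1+ LacZ+ cells and 41.7, 11.4 and 9.63 CPM in LacZ- cells. Over all libraries the groups overlapped, since replicate 1 was higher than replicates 2 and 3 in all 5 groups. Within each replicate number, all 3 HEI libraries were above both FLK1+ libraries. The log2 fold change was 2.28 ± 0.65 (adjusted p = 0.0142 in edgeR), and within replicates 1, 2 and 3 the log2 difference was 2.41, 2.0 and 1.97. Leaving out any 1 library gave values of 1.86 to 2.77, all past the threshold.

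Dppa4, a SAP-domain chromatin protein that works with DPPA2, lies on chromosome 16 (48283733 to 48294237, plus strand). It had 8.91, 5.14 and 4.87 CPM in HEI ENG+FDG+ cells, 9.83, 2.02 and 3.49 CPM in ENG-FDG+ cells and 6.25, 3.7 and 2.86 CPM in ENG+FDG- cells, against 17.7, 3.6 and 2.15 CPM in FLK1+ LacZ+ cells and 15.9, 2.58 and 2.32 CPM in LacZ- cells. The ranges overlapped throughout, with replicate 1 highest in every fraction. The log2 fold change was -0.52 ± 0.57 (adjusted p = 0.52 in edgeR). Its sign rests on replicate 1: it was 0.21 without FLK1+ LacZ+ replicate 1, 0.24 without LacZ- replicate 1, and 0.52 ± 0.23 in replicates 2 and 3, where it passed the threshold (adjusted p = 0.0444) with a pooled ratio of 1.38 (1.09 to 1.74). The within-replicate log2 differences were -1.02, 0.14 and 0.67.

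**Figure D2:**
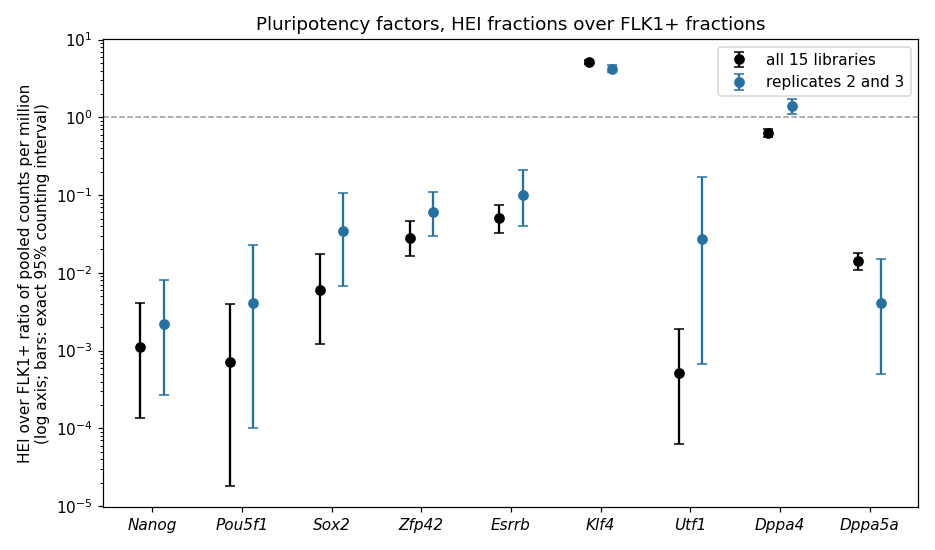
Ratio of pooled CPM, HEI fractions over FLK1+ fractions, for each of the 9 members on a log axis, with exact 95% counting intervals as bars. Black points use all 15 libraries and blue points replicates 2 and 3, and the dashed line marks equal levels. Klf4 lies above the line at 5.15 and 4.22, Dppa4 changes side (0.634 and 1.38), and the other 7 lie at or below 0.0989.

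Per kilobase of annotated exon, the members ranked differently in the 2 kinds of cell. In FLK1+ LacZ+ cells Dppa5a averaged 59.9 ± 88.5 CPM per kb (SD, n = 3) and Utf1 41.8 ± 71.5, each carried by replicate 1. They were followed by Nanog (7.14 ± 4.47), Pou5f1 (6.26 ± 9.09), Klf4 (5.34 ± 3.87), Dppa4 (4.69 ± 5.15), Sox2 (2.80 ± 3.83), Zfp42 (2.72 ± 2.85) and Esrrb (1.03 ± 1.44), and no 2 neighbours in this order differed by more than their SDs. In LacZ- cells Dppa5a led again (48.2 ± 57.9 CPM per kb), then came Klf4 (6.86 ± 5.90) and Nanog (6.70 ± 1.93), and Esrrb was last (0.257 ± 0.091). In the HEI fractions Klf4 led with 35.3 ± 29.9 CPM per kb in ENG+FDG+ cells, 18.9 ± 19.2 in ENG-FDG+ cells and 38.1 ± 38.3 in ENG+FDG- cells. Dppa4 was second in each, at 3.79 ± 1.36, 3.08 ± 2.5 and 2.57 ± 1.06 CPM per kb in the same order, and among the other members only Dppa5a in ENG-FDG+ cells (2.46 ± 4.27, from 1 library) was above 1 CPM per kb.

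The wider pluripotency network divided in the same comparison. Of 18 further genes of the naive network, 13 were tested, 8 were lower in HEI cells, 4 were higher and 1 did not pass, with a median log2 fold change of -2.05. L1td1, an RNA-binding protein of ES cells, had a log2 fold change of -7.14 ± 0.66, Prdm14, a transcriptional repressor of the naive and germ-cell states, of -6.60 ± 0.70, and Tbx3, a T-box factor, of -2.05 ± 0.27, all past the threshold in edgeR (adjusted p of 3.6e-06, 3e-05 and 6.19e-05). Klf5, another Krüppel-like gene, was among the 8 that were lower, with 5.01 to 34.6 CPM in HEI libraries and 8.85 to 51.9 CPM in FLK1+ libraries, which overlapped. The 4 that were higher were Klf2, Nr5a2 and the cytokine-signalling genes Stat3 and Lifr. These act in many cell types besides ES cells, and Stat3 was higher by 1.09 ± 0.12 (adjusted p = 1.04e-05). Klf2, a relative of Klf4 and likewise a flow-responsive endothelial factor, was higher by 4.97 ± 1.0 (adjusted p = 0.00166), with 30.7 to 425 CPM in HEI libraries and 0.922 to 17.3 CPM in FLK1+ libraries, which did not overlap.

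Genes of the primed epiblast were lower in HEI cells in 8 of 8 tested, with 2 of the 10 not tested and a median log2 fold change of -5.75. Their summed level was 4.15 to 11.2 CPM in the HEI libraries and 183 to 719 CPM in the FLK1+ libraries. Tdgf1, the NODAL co-receptor CRIPTO, had 0 to 3.36 CPM in HEI libraries and 157 to 568 CPM in FLK1+ libraries. Otx2, a homeobox factor of the primed state, had 0 to 0.0961 CPM in HEI libraries and 2.67 to 23 CPM in FLK1+ libraries. In the germ-cell list, 4 of 6 tested genes were lower (Prdm14, Tfap2c, Dnd1 and Ddx4), while Kit, which is also a receptor of blood progenitors and a marker by which the study describes cells with an active -8/P reporter, was higher (1.48 ± 0.21, adjusted p = 0.000111). Dppa3, a marker of naive cells and germ cells, had no count in the 9 HEI libraries and 0 to 12.1 CPM in the FLK1+ libraries.

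Markers of other cell types moved between the same groups. All 10 nascent mesoderm genes were lower in HEI cells (median log2 fold change -8.73), with a summed level of 5.85 to 17.7 CPM against 568 to 2220 CPM in FLK1+ libraries. Mixl1, a homeobox gene of the primitive streak, had 0 to 2.98 CPM in HEI libraries and 279 to 979 CPM in FLK1+ libraries. All 12 endothelial genes were higher (median 3.58), with a summed level of 2600 to 6470 CPM in HEI libraries and 458 to 832 CPM in FLK1+ libraries. Of 9 early haematopoietic genes tested, 3 were higher (Gfi1, Itga2b and Hbb-bh1) and 3 lower (Runx1, Ikzf1 and Gata1). Itga2b, which encodes CD41, had 36.1 to 86.5 CPM in HEI libraries and 5.44 to 24.1 CPM in FLK1+ libraries. Runx1 had 18.7 to 302 CPM in HEI libraries and 128 to 159 CPM in FLK1+ libraries. These are RNA levels, and the CD41 protein by which the study describes cells marked by the -8/P construct was not measured here. Among endoderm genes 2 were higher and 4 lower of 7, and the 2 that were higher, Sox17 and Sox7, are also endothelial factors. Among neural and ectodermal genes 3 were higher and none lower of 5, with Nes, which encodes the filament protein nestin, at 149 to 236 CPM in HEI libraries and 45.7 to 79.8 CPM in FLK1+ libraries. Sox2 is also a neural gene, and the summed level of the neural list was 179 to 247 CPM in HEI libraries, where Sox2 was at 0 in 8 of 9, and 52 to 86.2 CPM in FLK1+ libraries. Nes made up most of that sum, and the neural factors Sox1 and Sox3, which were not tested, averaged 0 and 0.0942 CPM in HEI libraries and 0.569 and 0.937 CPM in FLK1+ libraries. The part of these cell-type differences in the members' values was not tested.

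Within FLK1+ cells, no member passed the test between LacZ+ and LacZ- fractions, and 1 library of high values set the direction for most of them. None of the 8 tested members passed the test (edgeR), none had an unadjusted p under 0.05, and DESeq2 called none of the 6 to which it gave an adjusted p. Over all genes edgeR called 0 of 13662 (0%; 170 had an unadjusted p under 0.05), and DESeq2 called 7 genes. The replicate block, which compares fractions within the same replicate number, called 0 as well.

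FLK1+ LacZ+ replicate 1 held the highest level of all 15 libraries for 8 of the 9 members, the exception being Klf4. Against LacZ- replicate 1, the log2 CPM difference (prior count 2) was 4.59 for Utf1, 2.81 for Esrrb, 2.41 for Sox2, 1.67 for Pou5f1 and 1.08 for Nanog. The members' median was 1.08 in this pair, and 1.82% of all genes were higher by more than 2, as Utf1, Esrrb and Sox2 were. In the pairs of replicates 2 and 3 the members' medians were -0.19 and -0.37, with 4 and 2 of 9 members higher. Pou5f1 was lower in LacZ+ cells in both of these pairs (-1.48 and -0.56), as were Zfp42 (-0.86 and -0.95) and Dppa5a (-0.85 and -0.62). Klf4 was lower in LacZ+ cells in all 3 pairs (-0.48, -0.19 and -0.11) and Utf1 higher in all 3 (4.59, 0.93 and 0.12). Sox2, Nanog, Esrrb and Dppa4 changed sign between the pairs of replicates 2 and 3.

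**Figure D3:**
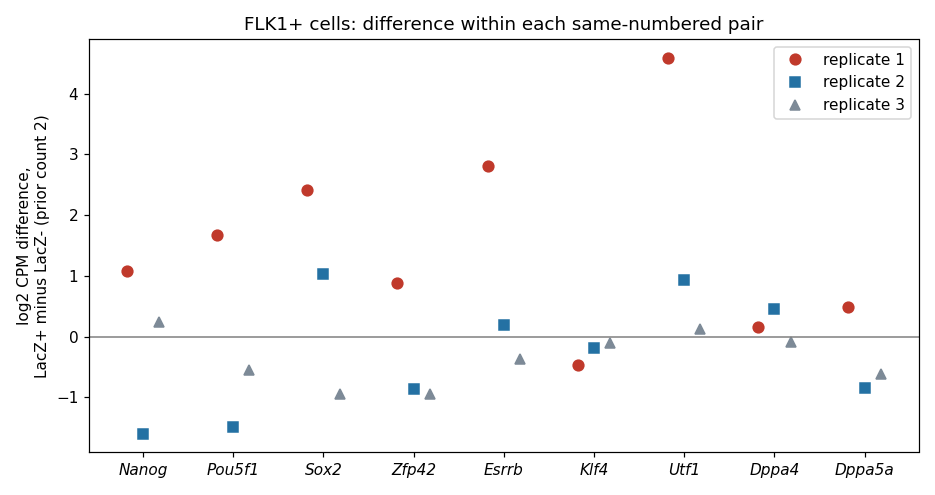
Log2 CPM difference (prior count 2) between FLK1+ LacZ+ and LacZ- libraries of the same replicate number, for each of the 9 members. Points are single pairs, with the replicate number given by shape and colour. In replicate 1, 8 of 9 members lie above 0 and Utf1 reaches 4.59, while in replicates 2 and 3 Pou5f1, Zfp42, Klf4 and Dppa5a lie below 0.

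In the fit over all libraries, Esrrb had the largest difference of the tested members (log2 fold change 2.0 ± 1.22, adjusted p = 1 in edgeR), followed by Sox2 (1.65 ± 1.18), Pou5f1 (0.95 ± 1.08) and Dppa5a (0.32 ± 1.43). Without LacZ+ replicate 1 all 8 had a negative log2 fold change, with -1.68 for Pou5f1, -2.46 for Dppa5a and -0.37 for Esrrb (adjusted p of at least 0.925). That fit keeps LacZ- replicate 1, which was high for Dppa5a and Dppa4. With replicate 1 left out of both fractions Dppa4 had a log2 fold change of 0.22 ± 0.36 and the other 7 stayed negative. In these libraries, replicates 2 and 3, Pou5f1 had a log2 fold change of -1.18 ± 0.45, Zfp42 of -0.98 ± 0.50, Dppa5a of -0.76 ± 0.29 and Nanog of -0.61 ± 0.37. None passed (adjusted p of 0.549, 0.704, 0.549 and 0.762 in edgeR), where 0.0601% of genes did, and 2 of the 8 members had an unadjusted p under 0.05.

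LacZ+ replicate 1 was also high for genes of the naive state outside the members. Tdh, a threonine dehydrogenase of mouse ES cells, had 46.8 CPM there and at most 1.96 CPM in the other FLK1+ libraries. Dppa3 had 12.1 CPM against at most 0.7, Gdf3, a TGF-beta family ligand of ES cells, 10.3 against at most 0.461, and L1td1 174 against at most 44.5 CPM. Of the 18 naive-network genes, 15 were higher in LacZ+ than in LacZ- cells in this pair (median 1.81), and 6 were higher in each of the other 2 pairs. Of the 10 primed epiblast genes 7 were higher in this pair (median 0.52), but their summed level was not, at 602 CPM in LacZ+ replicate 1 and 719 CPM in LacZ- replicate 1, and Tdgf1 had 251 CPM against 568 CPM. Cdh1 (E-cadherin), a member of that list, had 168 CPM in LacZ+ replicate 1 and at most 30.3 CPM in the other FLK1+ libraries, and Epcam, from the endoderm list, had 72.4 and at most 32.6 CPM. Of the 12 endothelial genes, 12, 9 and 11 were higher in LacZ+ cells in the pairs of replicates 1 to 3, with median log2 differences of 2.4, 0.58 and 0.55. Among them Cdh5 (VE-cadherin) had 123 CPM in LacZ+ replicate 1 and 10.4 to 37.6 CPM in the other FLK1+ libraries. The 10 nascent mesoderm genes were lower in LacZ+ cells in all 3 pairs. The part of these other genes' cells in the members' values was not tested.

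Within the HEI cells, Klf4 had its lowest value in the ENG-FDG+ fraction in every replicate number. The log2 difference of ENG+FDG+ over ENG-FDG+ cells was 0.76, 1.03 and 1.39 in replicates 1 to 3, and that of ENG-FDG+ over ENG+FDG- cells was -1.0, -1.0 and -1.07. Because replicate 1 was so much higher, this did not pass the test over all libraries, with a log2 fold change of 0.90 ± 0.92 for ENG+FDG+ against ENG-FDG+ (adjusted p = 0.947 in edgeR) and -1.01 ± 0.93 for ENG-FDG+ against ENG+FDG- (adjusted p = 0.889). No member was called in the first comparison, where 0.278% of genes were, nor in the second, where 0.351% were. One member, Dppa5a, had an unadjusted p under 0.05 in the second and none in the first, and DESeq2 called no member in either.

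With the replicate number as a block, Klf4 passed in both comparisons. It was higher in ENG+FDG+ than in ENG-FDG+ cells by a log2 fold change of 1.05 ± 0.15 (adjusted p = 0.000841 in edgeR, with 5.1% of genes called higher) and lower in ENG-FDG+ than in ENG+FDG- cells, with a log2 fold change of -1.02 ± 0.15 (adjusted p = 0.000994, with 5.65% of genes called lower). In replicates 2 and 3 the values were 1.27 ± 0.14 (adjusted p = 9.4e-07 in edgeR) and -1.07 ± 0.14 (adjusted p = 7.77e-06). There 14.7% of genes were called higher in the first comparison and 13.7% lower in the second. Whether replicates 2 and 3 are separate samples is not known, so these p values may be too small. The 2 comparisons share the ENG-FDG+ libraries, so they are not separate evidence. Klf2 gave the same picture with the block, 1.0 ± 0.17 and -0.83 ± 0.17 (adjusted p of 0.00263 and 0.00746). Klf5 did not: its highest HEI value was in the ENG-FDG+ fraction in every replicate number (34.6, 5.86 and 6.39 CPM), and the block did not call it. Of the 13 tested naive-network genes, the block called Klf2, Tbx3 and Nr5a2 higher and Stat3 lower in ENG+FDG+ than in ENG-FDG+ cells.

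**Figure D4:**
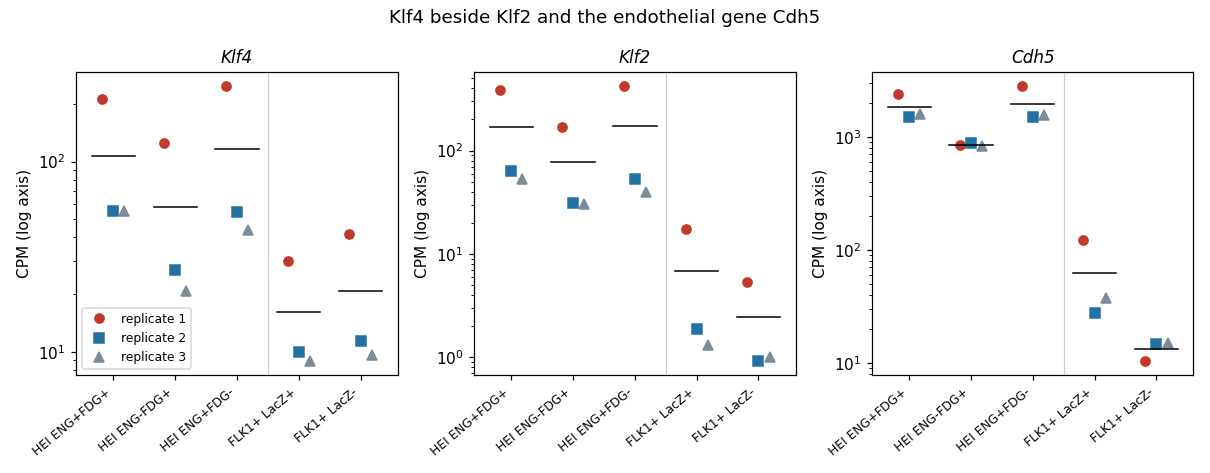
CPM of Klf4, its relative Klf2 and the endothelial gene Cdh5 in the 15 libraries, each on its own log axis. Points are libraries with the replicate number given by shape and colour, and bars are means of 3 libraries. For all 3 genes the HEI libraries lie above the FLK1+ libraries of the same replicate number and ENG-FDG+ is the lowest HEI fraction, while replicate 1 is far above replicates 2 and 3 in Klf4 and Klf2.

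The endothelial list was also lowest in the ENG-FDG+ fraction, at a summed 4470 to 5800 CPM in ENG+FDG+ cells, 2600 to 2780 CPM in ENG-FDG+ cells and 4300 to 6470 CPM in ENG+FDG- cells. Cdh5 had 1510 to 2410 CPM in ENG+FDG+ cells, 838 to 875 CPM in ENG-FDG+ cells and 1490 to 2840 CPM in ENG+FDG- cells. Early haematopoietic genes ran the other way, at a summed 101 to 140 CPM in ENG+FDG+ cells, 502 to 608 CPM in ENG-FDG+ cells and 114 to 137 CPM in ENG+FDG- cells. The part of these differences in the Klf4 values was not tested.

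The other members gave little to compare within HEI cells, as 4 of them had 1 to 3 counts over the 9 libraries. Dppa5a was called higher in ENG-FDG+ than in ENG+FDG- cells with the block (adjusted p = 0.0128 in edgeR, with 5.44% of genes called higher), from 54, 0 and 0 counts against 0, 1 and 0 counts, so the call rests on ENG-FDG+ replicate 1. Without that library the sign turned (-1.82, adjusted p = 0.89). Dppa4 passed in replicates 2 and 3 as higher in ENG+FDG+ than in ENG-FDG+ cells (0.91 ± 0.33, adjusted p = 0.0452), and over all libraries it had 0.30 ± 0.89 (adjusted p = 1).

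No difference in the members was detected by reporter activity within ENG+ HEI cells. Between ENG+FDG+ and ENG+FDG- cells none of the 8 was called, none had an unadjusted p under 0.05, and DESeq2 called none; over all genes edgeR called 0%, with 39 at an unadjusted p under 0.05, and DESeq2 called 0. Klf4 had a log2 fold change of -0.11 and Dppa4 of 0.56 (adjusted p of 1 for both), and Dppa4 was higher in ENG+FDG+ cells in all 3 replicate numbers, by 0.50, 0.46 and 0.74. Pou5f1 and Sox2 had no count in either fraction and Nanog had 1 count in each, so for these genes the lack of a call was fixed by depth. Zfp42 had 4 and 11 counts in ENG+FDG+ and ENG+FDG- cells, Esrrb 5 and 6, and Dppa5a 8 and 1. The difference between the reporter effect in ENG+ HEI cells and that in FLK1+ cells was tested as an interaction. It was called for none of the 8 members and for 0% of genes in edgeR, with no member at an unadjusted p under 0.05 and 97 genes at one, and DESeq2 called 0. Reporter, line and stage all differ between the 2 pairs of fractions and cannot be told apart in that test. For Pou5f1 and Sox2 the interaction could not be estimated, for want of HEI reads in those fractions.

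Ndufa4l2, Mfap4, Alpl, Ifitm1 and Dclk1 were among the 6 genes whose pattern over the 15 libraries was most like that of Dppa5a, the member with the highest mean CPM per kb among those tested. Likeness was the root mean square difference in log2 CPM, with each gene centred within its replicate number, and it was 0.655 to 0.842 for these 5 of 10267 genes compared. Among the other members Nanog ranked 12th (0.996) and Pou5f1 18th (1.04), then came Zfp42, Sox2 and Esrrb at ranks 97, 105 and 162. Dppa4 and Klf4 ranked 4406 and 9865. For Klf4, looked up after its values were seen, the nearest genes were Heg1, Pld1, Rgl1, Ece1, Dusp1 and Anxa5 (0.183 to 0.205), with no other member nearer than rank 5863. These ranks describe these libraries, whose main contrast is HEI against FLK1+ cells, and carry no test.

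Near-identical copies could bear on 3 members. RefSeq gene names and synonyms give 7 copies or relatives of Pou5f1, 2 of Nanog and 2 of Dppa5a, and 0 of them are rows of the count table. No source used here says how reads that match both a gene and its copy were counted, so the levels of these 3 genes are uncertain to that extent.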

How the data were processed

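RNA was measured in 15 libraries, 5 groups of 3, assigned by their labels. Per the labels' protocols, a Nugen kit amplified the RNA before library construction. The authors deposited raw read counts per gene symbol; per the submitters' processing notes they used STAR 2.4.0 and HTSeq 0.6.1 with mm10, and the annotation, strand setting and filters were not given in the sources used here. Of 24061 lines, 27 with a calendar date for a symbol were left out. From the counts, edgeR 4.0.16 (R 4.3.3) kept 13662 genes with filterByExpr, scaled libraries with TMM and fitted all 15 libraries in 1 quasi-likelihood model of group means. Adjusted p values are Benjamini-Hochberg values over all genes tested, with a threshold of 0.05. Totals of 9673396 to 16337785 put 3 counts at 0.182 to 0.308 CPM. Intervals are exact (Clopper-Pearson) and cover counting error only, and amplified reads are not independent molecules. The code was tested on simulated counts for the HEI against FLK1+ comparison. These had no replicate 1 shift and placed changes only in well-counted genes, so they do not cover genes with few reads.

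Replicates 2 and 3 of a group differed by more than sampling noise (chi-square per degree of freedom of 3.52 to 7.98), and each was counted as a library of its own. Sampling noise here is counting error alone, which repeats of the same amplified sample could also exceed. The measure therefore cannot tell whether replicates 2 and 3 are separate samples. Deviations from group means correlated between libraries of the same number in all 10 pairs per number (0.563 to 0.867, 0.472 to 0.665 and 0.432 to 0.68 for replicates 1 to 3). The group means include replicate 1, whose shift was shared by all groups. That shift alone makes replicates 2 and 3 deviate together, and correlations between different numbers were not computed. The numbers were taken to pair the libraries, which for replicates 2 and 3 is an assumption. What the number stands for is not given in the labels. Alternatives were RLE factors, no filter, at least 5 CPM in 3 libraries, only the groups compared, DESeq2 1.42.0, each library left out, the replicate block, and replicates 2 and 3 with and without it.

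The members and gene lists were chosen with earlier results of these data known, so a pattern among them is a description. All 9 members are named. Of each other list the rule takes up to 4 genes past the threshold by adjusted p, or the 2 highest where none passed. Klf2, Klf5, Nr5a2, Lifr, Tdh, Dppa3, Gdf3, Dnd1, Sox1 and Sox3, and the genes nearest to Klf4, fall outside it. They were picked with their values in view. All early haematopoietic genes called between HEI and FLK1+ cells are named, whether or not the rule takes them. Coordinates are from GENCODE M21 (mm10) and upstream sequences from RefSeq (GRCm38.p6). A gene that the rule on pattern likeness names is not reported here.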

Additional observations from a re-analysis of the deposited data

How the results depend on the processing

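Between HEI and FLK1+ cells the 7 calls among the members held in direction under every alternative that tested the gene. For the 6 lower members this was largely fixed in advance, since they had few HEI reads and passed the filter through their FLK1+ libraries. Klf4 is the call for which the direction could have turned. The count was 7 to 8 when any 1 library was left out. It was 4 with the filter of at least 5 CPM in 3 libraries, which left 5 members to test, and 5 with DESeq2, which gave 6 members an adjusted p. The replicate block changed the calls given beside Klf4 and Dppa5a within HEI cells and no other call among the members. Members called in ENG+FDG+ against ENG-FDG+ cells numbered 1 with the block, 2 in replicates 2 and 3 and 2 with both. In ENG-FDG+ against ENG+FDG- cells they numbered 2, 1 and 1. By reporter status, in FLK1+ cells, in HEI cells and in the difference between them, no alternative called a member.

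Signs turned among values that did not pass the test over all libraries. In FLK1+ LacZ+ against LacZ- cells the replicate block gave log2 fold changes of -0.046 for Nanog, -0.12 for Zfp42 and -0.31 for Dppa5a. Replicates 2 and 3 gave -0.61 for Nanog, -1.18 for Pou5f1, -0.25 for Sox2, -0.98 for Zfp42, -0.05 for Esrrb and -0.76 for Dppa5a. With the block as well they gave -0.66 for Nanog, -1.11 for Pou5f1, -0.11 for Sox2, -0.98 for Zfp42, -0.059 for Esrrb and -0.76 for Dppa5a. Leaving out each library gave -0.48 to 0.47 for Nanog, -1.68 to 1.46 for Pou5f1, -0.61 to 2.12 for Sox2, -1.20 to 0.56 for Zfp42, -0.37 to 2.51 for Esrrb, -1.15 to 0.63 for Klf4, -1.27 to 1.68 for Dppa4 and -2.46 to 2.03 for Dppa5a. Klf4 in ENG+FDG+ against ENG+FDG- cells was 0.03 with the block, 0.20 in replicates 2 and 3, 0.20 with both, and -1.08 to 1.14 leaving out each library. In ENG+FDG+ against ENG-FDG+ cells leaving out each library gave -0.065 to 2.18 for Klf4 and -0.073 to 1.20 for Dppa4. In ENG-FDG+ against ENG+FDG- cells it gave -2.32 to 0.23 for Klf4, -0.67 to 0.64 for Dppa4 and -1.82 to 7.22 for Dppa5a, while replicates 2 and 3 gave -0.27 for Dppa4 and -2.28 for Dppa5a, and with the block -0.26 and -2.28. Dppa4 in HEI against FLK1+ cells was 0.52 in replicates 2 and 3, 0.53 with the block, and -0.77 to 0.24 leaving out each library. The cause was not tested. A fit of only the groups compared does not exist for HEI against FLK1+, which uses all. Depth limits Nanog, Pou5f1, Sox2 and Utf1 within HEI cells, where 1 to 3 counts in 9 libraries allow no comparison of fractions.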
